A study of Mus musculus with 50 samples.

Results

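The Onecut and Ebf factors are described here through 6 genes, Onecut1, Onecut2, Onecut3, Ebf1, Ebf2 and Ebf3, which were chosen by symbol among the 55385 genes of the deposited RNA tables. All 6 genes were found once in every table. The study followed mouse spinal motor neurons by RNA-seq in 28 libraries and by ATAC-seq, which maps open chromatin, in 22 libraries. At E10.5 whole cells were sorted for green fluorescence from C57BL/6- HB9-GFP embryos, in which the Hb9 promoter drives the label, with 3 RNA libraries. At E13.5, P13 and 2yr (2 RNA libraries each) and at P4, P21 and P56 (3 each) nuclei were taken from pooled spinal cords of C57BL/6- Chat-Cre;SUN1-GFP-3xMYC mice. In these mice Chat-Cre turns on a nuclear envelope tag in all cholinergic neurons, so visceral motor neurons and cholinergic interneurons are included with skeletal motor neurons. The paper cites a finding that Chat-Cre also labels many GABAergic and glutamatergic neurons of the adult cord. Its own deconvolution of the P56 data found no significant share of non-cholinergic cells. The cultured motor neurons came from embryonic stem cells of the same Chat-Cre;SUN1-GFP-3xMYC genotype and were sampled as nuclei at DIV0, from embryoid bodies, and at DIV7 and DIV28, on cortical astrocytes with neurotrophic factors. A further group, DIV28_TTX, received 1 uM tetrodotoxin (TTX), a blocker of voltage-gated sodium channels, for all 28 days. DIV0 and DIV7 had 2 RNA libraries each, DIV28 and DIV28_TTX had 3 each, and every age or culture group had 2 ATAC libraries.

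Onecut proteins bind DNA through a cut domain and a homeodomain and act as transcriptional activators. Onecut1, also called Hnf6, is known from liver, pancreas and newborn spinal motor neurons, where Onecut factors help to maintain Isl1 and to diversify motor neuron subtypes. Ebf proteins, also called Olf/COE proteins, bind DNA as dimers through a zinc-coordinating domain and a helix-loop-helix, and recognise palindromic sites. Ebf1 is best known for B cell commitment, and in the spinal cord Ebf1, Ebf2 and Ebf3 are switched on as neurons leave the ventricular zone and differentiate. Zfp423 and Zfp521 are zinc finger proteins that bind Ebf proteins, and proneural factors such as Neurog2 act upstream of Ebf genes in newborn neurons.

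In mm10 with GENCODE vM21, Onecut1 spans chr9:74861921-74891781 on the + strand, Onecut2 chr18:64340020-64400987 (+), Onecut3 chr10:80494835-80517276 (+), Ebf1 chr11:44617317-45008091 (+), Ebf2 chr14:67233292-67430918 (+) and Ebf3 chr7:137193673-137314445 (−). A noncoding gene on the same strand, Gm20649, overlaps Onecut1, but it held no count outside the DIV28 and DIV28_TTX groups and at most 14.9 normalised counts in a library there. A short same-strand transcript inside Onecut3, 2610034O05Rik, held 10.45 to 15.29 normalised counts at DIV0 and at most 5.34 elsewhere. Antisense genes overlap Ebf1, Ebf2 and Ebf3, and the counting ran RSEM at its defaults, which do not use strand. Reads from any exon bases shared by such a pair of genes cannot be told apart by strand. How much of the exons is shared is not given here.

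Total counts per library ranged from 2704642 (DIV7 replicate 1) to 21823492 (DIV28 replicate 2). The library counted here as DIV28 replicate 3 is titled as a DIV0 replicate. The study describes fewer DIV0 than DIV28 RNA replicates. Across 14956 genes this library correlated at 0.935 to 0.936 with the other DIV28 libraries and at 0.730 to 0.731 with the DIV0 libraries, so results that turn on it are also given without it or with it placed as titled. The E13.5 libraries stood apart by markers of other cells. The summed normalised counts of 5 endothelial markers were 5.34 to 19.4 per library at E10.5, 11780 to 21960 at E13.5, 4000 to 5401 at P4, 273 to 414 at P13 and 25.2 to 46.4 at P21. The sums of 6 erythroid markers were 0 to 5.34 at E10.5, 15380 to 17480 at E13.5, 1092 to 1483 at P4 and 190 to 376 at P21, and those of 5 pericyte markers were 22.1 to 47.0, 2254 to 2287, 3336 to 4972 and 32.2 to 81.6 at the same ages. The 8 motor neuron identity genes (Isl1, Isl2, Lhx3, Lhx4, Mnx1, Chat, Slc5a7, Slc18a3) were detected in every group and summed to 3424 to 5779 at E10.5, 922 to 1782 at E13.5, 2637 to 2967 at P4, 2793 to 2832 at P21, 5668 to 6520 at DIV0 and 1694 to 2050 at DIV28. In bulk libraries fewer cells that carry a transcript and less of it per cell cannot be told apart.

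Onecut1 was high in newborn motor neurons and low from birth onwards. Its normalised counts (expected counts scaled for depth with median-of-ratios size factors) were 764, 585 and 700 in the E10.5 libraries and 117 and 70.8 at E13.5. They were 68.4, 60.045 and 87.3 at P4, 29.9 and 18.6 at P13, 29.4, 40.8 and 30.4 at P21, 28.9, 40.2 and 40.9 at P56 and 20.2 and 19.8 at 2yr. No library of a later age reached the lowest E10.5 library, and the ranges of P13, P21 and P56 overlapped. From E10.5 to P21 Onecut1 fell 20.4-fold (log2 fold change −4.35 ± 0.25 SE, adjusted p = 2.2e-11, edgeR quasi-likelihood test), with all 3 P21 libraries under all 3 E10.5 libraries. For every such test a gene was called when its unadjusted p was under 0.001 and its change at least 2-fold, and adjusted p-values were computed over all genes of the fit. Nothing in the labels says that the libraries of a group came from separate litters or cultures, so p-values measure the spread between libraries.

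Onecut2 followed a different course. It held 1707, 1273 and 1265 normalised counts at E10.5, dropped to 333 and 173 at E13.5 and stood at 726, 725 and 817 at P4. Later ages lay in a narrow band, with 605 and 624 at P13, 779, 890 and 948 at P21, 763, 798 and 862 at P56 and 726 and 713 at 2yr. The E13.5 libraries were the lowest of all 28. Between E10.5 and P21 the change of Onecut2 was −0.70 ± 0.18 (log2, adjusted p = 0.0017), which is under 2-fold and was not called.

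Onecut3, which made up 10.3% ± 3.62 of the summed Onecut TPM at E10.5, was low after that age. It held 128, 100 and 209 normalised counts at E10.5, 15.7 and 28.3 at E13.5, 21.3, 45.9 and 16.2 at P4, and between 5.57 and 19.6 in every library from P13 to 2yr. It fell 8.24-fold from E10.5 to P21 (log2 −3.04 ± 0.39, adjusted p = 8.8e-07), with no overlap between the ages. With so few counts after birth, differences among the adult ages were not detectable.

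**Figure D1:**
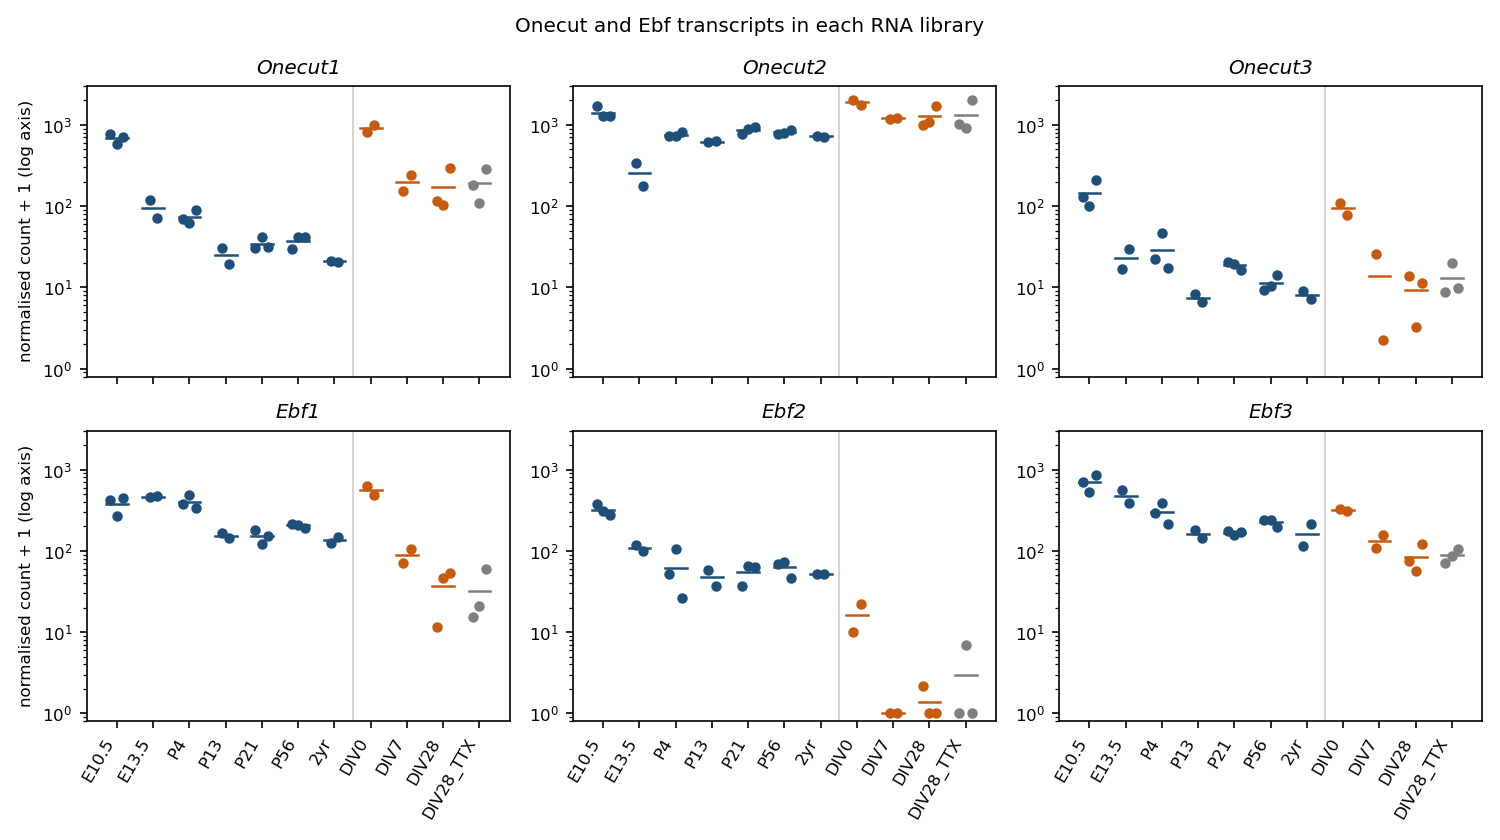
Normalised counts plus 1 (log axis) of the 6 genes in each RNA library, 1 point per library and a bar at the group mean, with in vivo ages in blue, cultures in orange and TTX cultures in grey. Onecut1 and Onecut3 sit highest at E10.5 and DIV0, Onecut2 is lowest in the E13.5 libraries, and Ebf2 is at or near 0 in every culture library after DIV0.

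Among the Ebf genes, Ebf1 kept its embryonic level longest. Its normalised counts were 423, 269 and 440 at E10.5, 459 and 470 at E13.5 and 371, 484 and 332 at P4. They then stood at 163 and 144 at P13, 179, 121 and 152 at P21, 214, 209 and 190 at P56 and 124 and 147 at 2yr. The E13.5 libraries lay within the P4 range, and every library from P13 onwards lay under every earlier one. Ebf1 fell 2.51-fold from E10.5 to P21 (log2 −1.33 ± 0.21, adjusted p = 1.1e-05).

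Ebf2 held 372, 308 and 278 normalised counts at E10.5 and 117 and 97.8 at E13.5. From P4 to 2yr its libraries ranged from 24.95 to 105, and the ranges of neighbouring ages overlapped throughout. It fell 5.87-fold from E10.5 to P21 (log2 −2.55 ± 0.35, adjusted p = 2.1e-06).

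Ebf3 had the highest TPM of the 3 Ebf genes at E10.5. Its normalised counts were 698, 523 and 865 at E10.5, 564 and 392 at E13.5, 291, 386 and 212 at P4, 178 and 145 at P13, 176, 156 and 169 at P21, 236, 238 and 195 at P56 and 114 and 210 at 2yr. The E10.5 and E13.5 ranges overlapped, and so did those of P13, P21 and 2yr. Ebf3 fell 4.18-fold from E10.5 to P21 (log2 −2.06 ± 0.26, adjusted p = 8.8e-07).

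From E10.5 to P21, then, 5 of the 6 genes were called lower and none higher, where 30.6% of the 15030 genes tested were called lower. The median change of the 6 genes was −2.31 (log2) and that of all genes tested 0.12. The E10.5 libraries are whole cells and the P21 libraries nuclei, from mice that carry different labels. By the paper's methods the E10.5 cells were sorted by fluorescence and came from brachial, thoracic and lumbar cord. The nuclei for RNA were bound to beads and came from brachial and lumbar cord. Age, material and label therefore cannot be told apart in any comparison with E10.5, nor can purification and cord segments for RNA. At E10.5 a single noncoding gene, Gm26917, took 15.5% to 16.2% of the counts, against 0.493% to 8.34% in the other libraries, and its part in the result was not tested. The 6 progenitor markers, all called lower, summed to 6920 to 12640 normalised counts at E10.5 and 33.6 to 98.1 at P21. The oligodendrocyte markers summed to 329 to 580 and 5535 to 7550, and 5 markers of inhibitory and excitatory transmitters to 24.2 to 125 and 579 to 862. The part of these cells was not tested. The 5 calls held when the E13.5 libraries were left out of the fit.

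In the step from E10.5 to E13.5 the test called 4 of the 6 lower and none higher, against 19.4% of all genes called lower. Onecut1 changed by −3.04 ± 0.25 (log2, adjusted p = 1.3e-08), Onecut2 by −2.65 ± 0.23 (1.8e-08), Onecut3 by −2.82 ± 0.41 (8.6e-06) and Ebf2 by −1.73 ± 0.36 (0.00039), all from edgeR. Ebf3 changed by −0.70 ± 0.28 and was not called, and Ebf1 by 0.14 ± 0.22. The call of Ebf2 was lost without E13.5 replicate 2, where its change was −1.61. In the same comparison 6 of the 8 motor neuron identity genes were called lower and Slc5a7 higher, and all 5 endothelial and all 5 pericyte markers were called higher. The part of these other cells in the E13.5 values was not tested.

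Between E13.5 and P4 only Onecut2 was called, higher by 1.74 ± 0.22 (log2, adjusted p = 2.1e-06), in a comparison in which 23.8% of all genes were called higher. This step shares the E13.5 libraries with the one before it. Of the 8 motor neuron identity genes Chat and Slc5a7 were called higher and Mnx1 lower in the same step.

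Between P4 and P13 Onecut1 and Ebf1 were called lower, against 7.54% of all genes. Onecut1 changed by −1.42 ± 0.28 (log2, adjusted p = 0.00093) and Ebf1 by −1.27 ± 0.23 (0.00045). Onecut3 changed by −1.99 ± 0.51 (adjusted p = 0.0058) and was called by DESeq2 but not by the edgeR test. Without P13 replicate 2 neither Onecut1 (−1.15) nor Ebf1 (−1.17) was called, and without P4 replicate 3 Onecut3 was called as well (−2.25). All 5 pericyte and all 5 endothelial markers were called lower in the same step, and 5 oligodendrocyte markers summed to 1610 to 2193 normalised counts at P4 and 9489 to 9642 at P13. The part of these cells in the result was not tested. Of the 8 motor neuron identity genes Isl1, which Onecut factors are known to maintain, was called lower (−1.46 ± 0.24, adjusted p = 0.00020) and Mnx1 higher (1.66 ± 0.38, 0.0028).

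After P13 none of the 6 genes was called by the edgeR quasi-likelihood test or by DESeq2. From P13 to P21 0 of 6 were called where 7.3% of all genes were, and 1 gene had an unadjusted p under 0.05. From P21 to P56 0 of 6 were called where 0.173% of all genes were, and no gene had an unadjusted p under 0.05. From P56 to 2yr 0 of 6 were called where 0.685% of all genes were, and 2 genes had an unadjusted p under 0.05. The widest of these changes was that of Onecut3 from P13 to P21, 1.33 ± 0.54 (log2, adjusted p = 0.091).

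Levels of different genes were compared on TPM, which is per transcript length. Within the Onecut family the leading member changed with age. Onecut1 made up 60.8% ± 0.457 (SD, n = 3) of the summed Onecut TPM at E10.5 and 54.7% ± 2.73 (n = 2) at E13.5, then 26.4% ± 3.78 at P4 and 13.3% ± 2.00 at P21 (both n = 3). Onecut2 made up 28.9% ± 3.22 at E10.5, 65.0% ± 1.45 at P4 and 80.9% ± 2.52 at P21. The share ranges of E10.5 and P21 did not overlap for either gene, which is larger than the spread between libraries. The family sum was 70.7 ± 17.3 TPM at E10.5, 6.24 ± 1.72 at E13.5 and 6.84 ± 0.302 at P21.

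Within the Ebf family Ebf3 made up 48.4% ± 6.82 of the summed Ebf TPM at E10.5 and 44.2% ± 6.67 at P21, and Ebf1 26.3% ± 3.82 and 42.0% ± 11.7. Ebf2 went from 25.3% ± 5.93 to 13.7% ± 5.49. The ranges at E10.5 and P21 overlapped for Ebf3 and not for Ebf1 or Ebf2. The family sum was 85.3 ± 19.7 TPM at E10.5 and 12.8 ± 3.74 at P21. On the TPM scale the median of all genes was itself lower at P21 than at E10.5 by a log2 of −0.68, where on normalised counts it was higher by 0.14, so the TPM ratios of single genes were wider: 47.1 for Onecut1 and 3.74 for Onecut2 (E10.5 over P21), against 20.4 and 1.62 on normalised counts.

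In culture, Onecut1 started high and was lower after plating. It held 822 and 991 normalised counts at DIV0, 154 and 237 at DIV7 and 114, 101 and 290 at DIV28. Onecut2 held 2035 and 1726, then 1193 and 1221, then 999, 1096 and 1707. Onecut3 held 108 and 76.4 at DIV0, 24.4 and 1.28 at DIV7, and 12.7, 2.26 and 10.2 at DIV28. For Onecut1 and Onecut2 both DIV0 libraries lay above all DIV7 and DIV28 libraries, and DIV28 replicate 3, the library titled as DIV0, was the highest of its group for both genes.

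Ebf1 held 634 and 483 normalised counts at DIV0, 69.4 and 106 at DIV7 and 10.4, 45.6 and 51.8 at DIV28, with no overlap between the 3 times. Ebf3 held 331 and 309, then 109 and 156, then 73.0, 55.6 and 120, and its DIV7 and DIV28 ranges overlapped. Ebf2 had 9.15 and 21.4 normalised counts at DIV0, none at DIV7, and 1.16, 0 and 0 at DIV28. Ebf2 was under the filter on low counts in the culture set and is given by counts. Its 21 counts at DIV0 against 0 at DIV7 put DIV0 at least 6.5-fold higher, with a floor of 3 counts over the group.

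From DIV0 to DIV7 0 of 5 genes tested were called by the edgeR quasi-likelihood test, where 11.2% of all genes were called. The fitted changes were −2.20 ± 0.53 for Onecut1 (log2, adjusted p = 0.011), −2.65 ± 0.66 for Ebf1 (0.013), −1.26 ± 0.38 for Ebf3 (0.032), −2.94 ± 1.02 for Onecut3 (0.057) and −0.63 ± 0.38 for Onecut2 (0.26). Of these 4 had an unadjusted p under 0.05, and DESeq2 called 2, Onecut1 and Ebf1. Onecut1 was called when the library titled as DIV0 was left out (−2.20 ± 0.41, adjusted p = 0.0027). From DIV7 to DIV28 0 of 5 were called by edgeR or by DESeq2, where 7.7% of all genes were called by edgeR, and unadjusted p was under 0.05 for 0 genes by edgeR and for 1, Ebf1, by DESeq2. From DIV0 to DIV7 5 of the 8 motor neuron identity genes were called lower (Mnx1, Chat, Lhx4, Lhx3 and Isl1), and so was Zfp423, which encodes an Ebf partner (−1.70 ± 0.37, adjusted p = 0.0068). Progenitor sums were 2310 to 2809 normalised counts at DIV0 and 531 to 967 at DIV7, and sums of 5 astrocyte markers 18.3 to 19.6 and 263 to 768. The part of these cells was not tested.

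TTX left no detectable difference in these genes. Onecut1 held 180, 109 and 284 normalised counts with TTX and Onecut2 1009, 918 and 2023. Ebf1 held 14.2, 20.1 and 58.1 and Ebf3 70.9, 85.2 and 105, while Onecut3 ranged from 7.73 to 19 and Ebf2 held 0, 5.97 and 0. The ranges overlapped those of DIV28 for all 6 genes, and replicate 3 was again the highest for Onecut1 and Onecut2. By the edgeR test 0 of 5 genes were called, where 0.683% of all genes were, none had an unadjusted p under 0.05, and DESeq2 called none. With the culture pair as a block, 0 of 5 were called as well, and the change of Onecut1 was 0.24 ± 0.25 (log2, adjusted p = 0.75). The widest fitted change without the block was that of Onecut3, 0.66 ± 0.83, and the narrowest that of Onecut2, 0.03 ± 0.31.

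DIV0 motor neurons were compared with E13.5 nuclei, the embryonic age with the same material. Onecut1 was called higher at DIV0 (log2 3.27 ± 0.38, adjusted p = 2.6e-07) and so was Onecut2 (2.88 ± 0.26, 1.0e-08), while Ebf2 was called lower (−2.85 ± 0.54, 0.00012). These 3 calls stand beside 39.4% of all genes called. Onecut3 was at 2.00 ± 0.61 (adjusted p = 0.0073) and not called, and Ebf1 and Ebf3 were at 0.24 ± 0.34 and −0.60 ± 0.32. The call of Ebf2 was lost without DIV0 replicate 1 (−2.42). In the same comparison 7 of 8 motor neuron identity genes were called higher at DIV0, and the part of the other cells at E13.5 was not tested.

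DIV28 cultures were compared with P21 nuclei. Onecut1 was called higher in culture (log2 2.37 ± 0.35, adjusted p = 7.5e-06), with all 3 culture libraries above all 3 P21 libraries. Ebf1 was called lower (−1.93 ± 0.32, 3.0e-05), again without overlap. Ebf2, called lower, had 117 counts in the P21 libraries and 1 in the DIV28 libraries, a ratio of 290 after scaling for depth with a 95% counting interval of 51.0 to 11552. The ratio was 122 without DIV28 replicate 2, the deepest library, 215 without replicate 3 and at least 81 without replicate 1, which held the single count (floor of 3 counts over the group), alternatives chosen after seeing the data. All 5 oligodendrocyte markers were called lower in this comparison, with sums of 5535 to 7550 normalised counts at P21 and 32.0 to 48.9 at DIV28, and their part in the result was not tested. These 3 calls stand beside 26.3% of all genes called. Ebf3 was at −0.97 ± 0.28 (adjusted p = 0.0063), Onecut2 at 0.59 ± 0.20 (0.017) and Onecut3 at −1.23 ± 0.64 (0.11), none of them called. With the library titled as DIV0 placed in DIV0, Onecut1 was still called (1.75 ± 0.39) and Ebf1 was not (−2.22 ± 0.66).

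The change from DIV0 to DIV28 was also tested against the change from E13.5 to P21 in 1 model, which shares its libraries with the comparisons above. Onecut2, Ebf1 and Ebf2 were called, each with the more negative change in culture, against 17.5% of all genes called in that direction. The difference was −2.29 ± 0.32 for Onecut2 (log2, adjusted p = 3.0e-06), −2.17 ± 0.46 for Ebf1 (0.00034) and −4.59 ± 1.14 for Ebf2 (0.0015). Onecut3 was at −3.23 ± 0.88 (0.0032), not called by edgeR and called by DESeq2. The call of Ebf1 was lost without DIV0 replicate 1 (−1.88). The call of Ebf2 was lost, at −4.46 to −3.61, when E13.5 replicate 2, P21 replicate 2 or 3, DIV0 replicate 2 or DIV28 replicate 2 or 3 was left out. With the library titled as DIV0 placed in DIV0, Onecut2 alone was called. With E10.5 in place of E13.5, an alternative chosen after seeing the data, the difference was 0.17 ± 0.30 for Onecut2 and −2.51 ± 0.44 for Ebf1, and Onecut1, at −0.89 ± 0.50 with E13.5, was called at 1.95 ± 0.47.

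**Figure D2:**
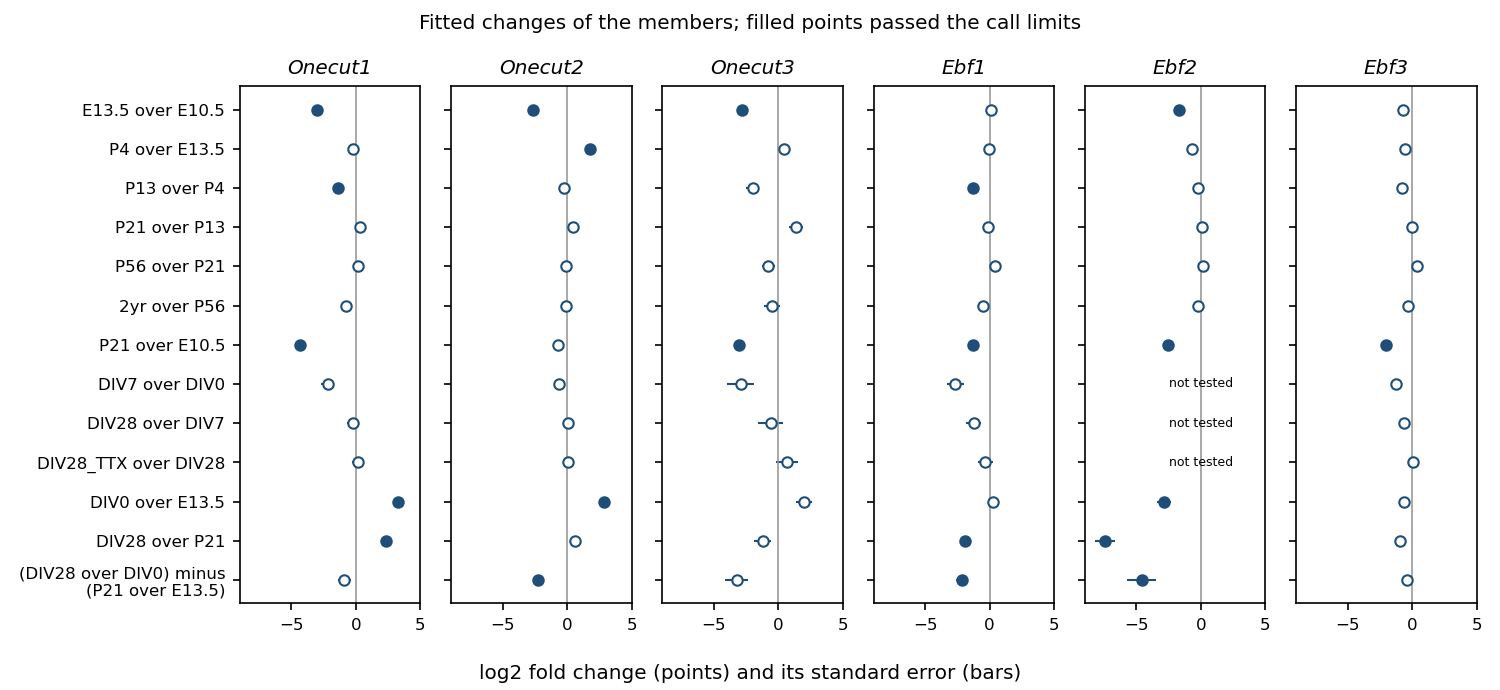
Fitted log2 fold changes (points) with standard errors (bars) of the 6 genes in the 13 comparisons, filled where the edgeR test called the gene. Calls lie between E10.5 and P13 in vivo, none lies after P13 or among the culture steps, and the size of the Ebf2 point at DIV28 over P21 depends on the prior count because 1 count was found at DIV28.

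In the order of group means, DIV0 came first and E10.5 next for both Onecut1 (906 ± 119 and 683 ± 90.9 normalised counts) and Onecut2 (1880 ± 218 and 1415 ± 253), with no overlap between DIV0 and E10.5 for either. Ebf1 was also highest at DIV0 (558 ± 107), followed by E13.5, P4 and E10.5. The P4 range overlapped that of E13.5 and that of E10.5, which did not overlap each other. Onecut3, Ebf2 and Ebf3 were highest at E10.5. At the low end, DIV28 and DIV28_TTX held the lowest means of Ebf1 (35.9 ± 22.3 and 30.8 ± 23.8) and Ebf3 (83.0 ± 33.5 and 86.9 ± 17.0), with overlapping ranges.

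On TPM the Onecut family of the cultures moved from Onecut1 to Onecut2 as in vivo but kept more Onecut1. Onecut1 made up 64.6% ± 6.17 of the family at DIV0, 40.0% ± 8.64 at DIV7 and 35.2% ± 6.29 at DIV28, where Onecut2 made up 63.3% ± 6.35. The DIV28 range of the Onecut1 share, 30.3% to 42.3%, lay above the P21 range of 11.5% to 15.5%. The Ebf sum was 26.6 ± 7.01 TPM at DIV0, 13.04 ± 1.17 at DIV7 and 1.94 ± 0.403 at DIV28, under every P21 library. The median of all genes was itself lower on TPM by a log2 of −0.94 from DIV7 to DIV28 and −0.67 from P21 to DIV28, against 0 and −0.06 on normalised counts. On normalised counts the means at DIV7 and DIV28 were 87.6 and 35.9 for Ebf1 and 132 and 83.0 for Ebf3.

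The likeness of other genes to each of the 6 was described by Pearson's r of log2 normalised counts over the 28 libraries among 12624 genes. These libraries share ages and cultures, so r describes shared time courses, and no test was made. Sox11, a factor of newborn neurons, was closest to Onecut1 (r = 0.920), with Sh3rf1 (0.920) and Sox9 (0.913). Zmat3 (0.879), Selenoi (0.877) and Sfxn1 (0.867) were closest to Onecut2, and Irx5 (0.883), Slc18a2 (0.864) and Usp44 (0.852) to Onecut3. Ebf1 was closest to Dach1 (0.957), Nrp2 (0.949) and Zfp521 (0.931), the last of which encodes an Ebf partner. Sox10 (0.927), Eci1 (0.924) and Crybg3 (0.920) were closest to Ebf2, and Spon1 (0.928), Sox13 (0.926) and Frmd4b (0.924) to Ebf3. Among the 6 genes themselves r over the 18 in vivo libraries was highest for Onecut1 with Onecut3 (0.923) and lowest for Onecut2 with Ebf1 (−0.171).

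Genes upstream of and partnered with these factors were also followed. From E10.5 to P21 Ldb1, Neurog1, Neurog2, Neurod1 and Neurod4 were called lower. The Ebf partners Zfp423 (−0.71 ± 0.17, adjusted p = 0.001) and Zfp521 (−0.89 ± 0.13, 4.8e-06) were under the 2-fold limit. At DIV28 against P21 Zfp423 was called lower (−2.35 ± 0.23, adjusted p = 3.9e-08) and so was Zfp521 (−1.02 ± 0.20, 0.00018), as was Neurod4 (−3.02 ± 0.73, 0.0016). Among relatives of the 2 families, Ebf4, the remaining Ebf gene, was called higher at P21 (log2 1.2 ± 0.23, adjusted p = 8.5e-05), while the cut domain genes Cux1, Cux2 and Satb1 were not called. Ebf4 ranged from 38.0 to 59.5 normalised counts at E10.5 and from 95.3 to 157 at P21, without overlap.

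Renshaw cells, spinal interneurons in which Onecut genes are also active, were checked by 7 markers of V1 and Renshaw cells. These summed to 682 to 1341 normalised counts at E10.5, 95.3 to 116 at P21 and 151 to 292 at DIV28. Of the defining markers, Foxd3 held 87.1 to 191 normalised counts at E10.5 and at most 2.81 at P21, and Chrna2 held at most 0.691 at E10.5, at most 1.38 at P21 and none in culture. En1, the V1 determinant, held 26.96 to 157 at E10.5, at most 4.22 at P21, none at DIV0 and 47.4 to 76.5 at DIV28. The part of V1 cells in the E10.5 levels of the Onecut genes was not tested. The 4 markers of B cells, where Ebf1 is also active, summed to at most 159 normalised counts at E10.5 and at most 5.62 at P21. Only 1 of them, Pax5, passed the filter on low counts in vivo, and Cd79b was under 1 count in every E10.5 library. The part of B cells was not tested.

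ATAC peaks were read from the 80000 intervals of highest −log10 p in each library, since libraries held between 80386 and 224328 intervals. Peaks of the 22 libraries that shared a base were merged into 317663 regions. Of these 313 lay at the 6 loci, each locus being the gene body with 50 kb on both sides, with 24 regions at Onecut1, 31 at Onecut2, 36 at Onecut3, 109 at Ebf1, 64 at Ebf2 and 49 at Ebf3. The starts of the genes were open throughout. A peak within 2000 bp of an annotated start was found in all 22 libraries for Onecut1, Onecut2, Ebf1, Ebf2 and Ebf3, and in 21 for Onecut3, whose start peak in P56 replicate 1 ranked below the 80000. Ebf2, at 0 counts at DIV7, still had start peaks of 5.5-fold and 11.01-fold enrichment in the DIV7 libraries. Onecut1 start peaks had 9.37-fold and 10.1-fold enrichment at P21 and 4.20-fold and 6.81-fold at E10.5, so the height did not follow the transcript. Fold enrichment is relative to the background of its own library and depends on its depth.

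The Ebf3 promoter is shown because its peak was present in all 22 libraries, including those of DIV28, where the locus held few other regions. The window runs from 250 bases before to 50 bases after the RefSeq start (GRCm38.p6, the assembly of mm10), at chr7:137314396-137314695 on the − strand. Capitals mark a match to the Ebf letters CCCNNGGG, and the window held no Onecut match (ATCGAT or ATTGAT on either strand).
Ebf3 promoter: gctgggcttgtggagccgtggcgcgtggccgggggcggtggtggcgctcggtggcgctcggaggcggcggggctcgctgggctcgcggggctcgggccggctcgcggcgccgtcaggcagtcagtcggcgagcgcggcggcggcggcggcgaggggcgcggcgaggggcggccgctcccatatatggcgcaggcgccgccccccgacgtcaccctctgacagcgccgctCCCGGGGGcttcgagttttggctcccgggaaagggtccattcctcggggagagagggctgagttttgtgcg
Of all 32851 promoters of the same length, 13.7% held the Ebf letters and 8.4% the Onecut letters, and of the 6 genes 3 (Onecut1, Ebf1 and Ebf3) were in the promoter table.

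Away from the starts, the loci lost regions between DIV0 and DIV28. A region was counted as lost when both earlier libraries and neither later library held it. From DIV0 to DIV28 80 of the 313 regions were lost, 25.6%, against 10.6% of all regions of the genome. Ebf3 lost 20 of 49 regions (40.8%), Onecut3 10 of 36 (27.8%), Ebf1 29 of 109 (26.6%), Onecut2 8 of 31 (25.8%) and Onecut1 6 of 24 (25%), and Ebf2 lost 7 of 64 (10.9%), about the share of all regions. The Ebf3 locus held 26 and 25 regions in the DIV0 libraries, 11 and 13 at DIV7, 3 and 4 at DIV28 and 3 and 5 with TTX. The Ebf1 locus held 48 and 44 at DIV0 and 22 and 31 at DIV28. The shares lost are taken over all regions of a locus, held at DIV0 or not. At DIV0 the libraries held 66.7% and 52.8% of the regions at Onecut3, 53.1% and 51% at Ebf3 and 48.4% and 41.9% at Onecut2. They held 44% and 40.4% at Ebf1, 41.7% each at Onecut1 and 25% and 26.6% at Ebf2, against 24.7% and 24.5% of all regions. The part of this in the shares lost was not tested. With 2 libraries per group all of these are counts and shares without a test. The weakest of the 80000 intervals had a −log10 p of 4.85 and 2.33 in the DIV0 libraries and of 23.6 and 7.2 at DIV28, so a peak could be weaker at DIV0 and still be counted. With all deposited peaks 9.87% of the regions at the loci and 4.02% of all regions were lost.

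In vivo regions were also lost. From E10.5 to P21 34 of 313 regions were lost, 10.9%, against 6.02% of all regions, with 5 of 24 at Onecut1 (20.8%), 9 of 49 at Ebf3 (18.4%), 9 of 64 at Ebf2 (14.1%) and 1 of 36 at Onecut3 (2.78%). With the first library of each group alone 20.1% were lost from E10.5 to P21, against 15.1% of all regions, with the second 26.8% against 13.9%, and with all deposited peaks 5.88% against 2.67%. From E10.5 to E13.5 30 were lost, 9.58%, against 5.32% of all regions. Between E13.5 and DIV0 46 of 313 regions were gained, 14.7%, against 6.09% of all regions, with 20 of them at Ebf1. From P21 to DIV28 18 were lost, 5.75%, against 8.72% of all regions. These shares too are taken over all regions of a locus. The E10.5 libraries held 54.2% and 33.3% of the regions at Onecut1, 42.9% and 46.9% at Ebf3 and 20.2% and 39.4% at Ebf1. Of all regions they held 23.7% and 24.2%. Regions of a locus are not independent of each other, and the shares describe the libraries.

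**Figure D3:**
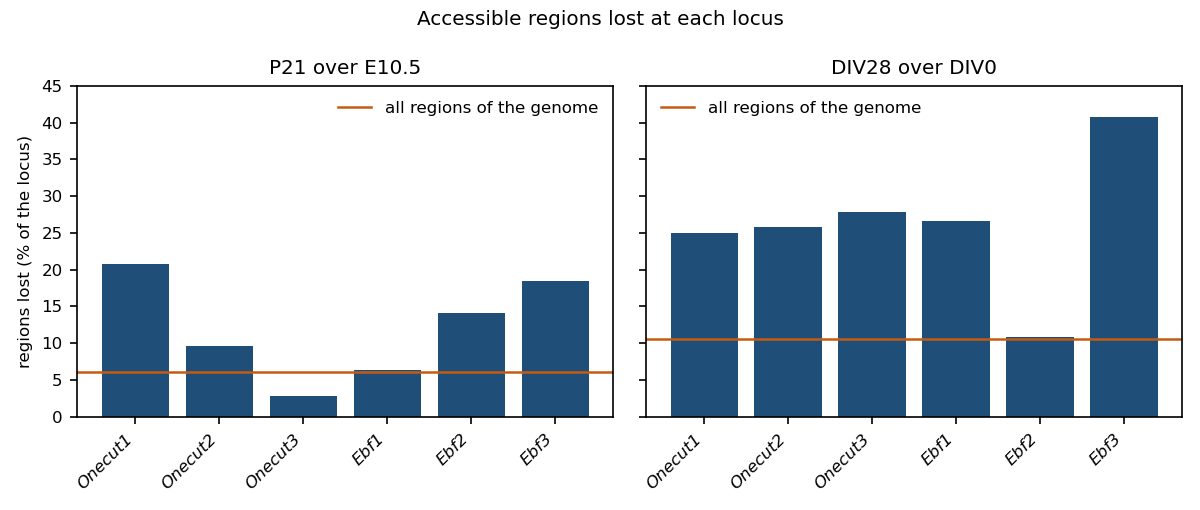
Share of the regions of each locus that were lost from E10.5 to P21 (left) and from DIV0 to DIV28 (right), in percent of the regions of the locus, with a line at the share over all regions of the genome. On the right 5 of the 6 bars stand well above the line of 10.6%, Ebf3 highest at 40.8%, and Ebf2 stands at it with 10.9%. The loci of these 5 bars also held a larger share of their regions at DIV0 than was held of all regions.

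Some regions were held by nearly all in vivo libraries and by no DIV28 or DIV28_TTX library among the 80000. At Ebf3 these lay 12.7 kb from the start in an intron, in all 14 in vivo libraries, and 166.2 kb from the start beyond the gene end and 7.1 kb upstream, each in 13. The region at 166.2 kb had no deposited peak of any strength at DIV28 or with TTX, whereas the region at −7.1 kb had a weaker peak in all 4 libraries. At Ebf1 such regions lay in introns at 275.6 kb, in all 14 in vivo libraries, and at 48.2 kb, in 13, and another lay 31.2 kb upstream, in 13. At Onecut3 they lay 31.6 and 39.0 kb from the start beyond the gene end, each in 13 in vivo libraries. Onecut2 had 1 in an intron at 2.9 kb, in all 14. Each of these regions at Ebf1, Onecut3 and Onecut2 had a weaker deposited peak in 1 to 4 of the DIV28 and DIV28_TTX libraries, as did that of Ebf3 at 12.7 kb. These regions were picked for this pattern, so it is a description and no finding.

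**Figure D4:**
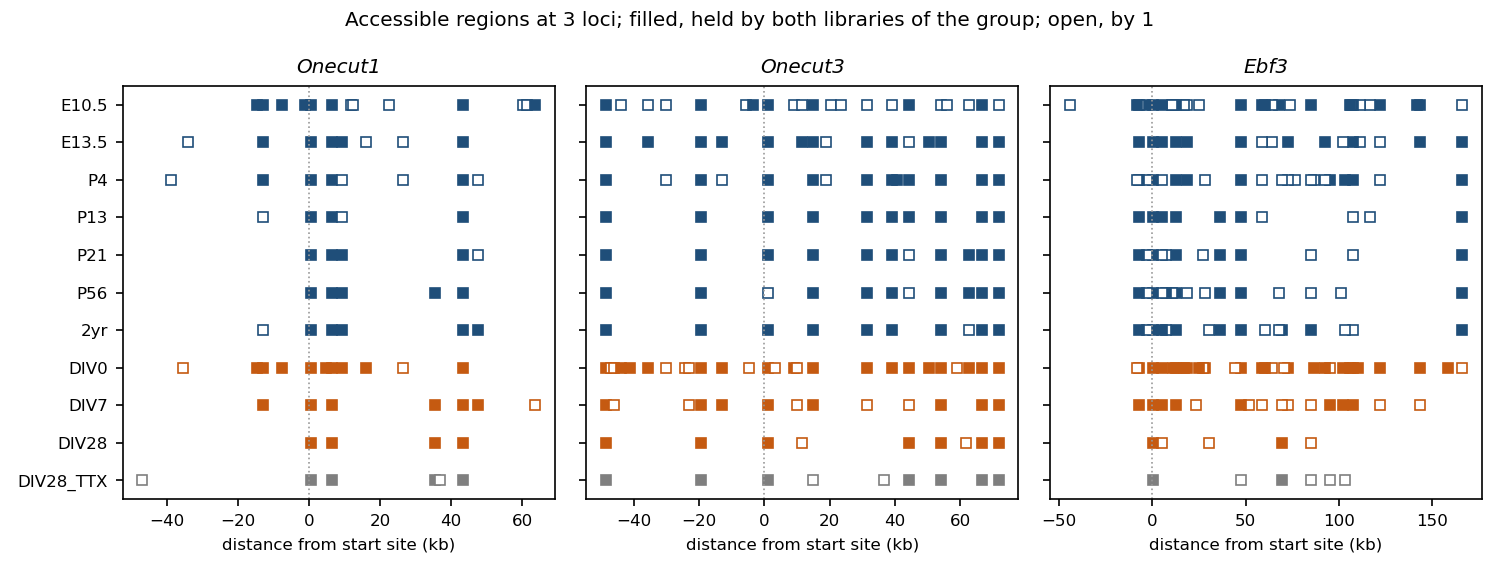
Regions at Onecut1, Onecut3 and Ebf3 by distance from the start site in kb (positive values lie in the direction of transcription), 1 row per group, filled squares held by both libraries and open squares by 1. At Ebf3 the DIV0 row is the fullest and the DIV28 row keeps the start and a few single squares, while the region at 166.2 kb appears in every in vivo row and not at DIV7, DIV28 or DIV28_TTX.

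Regions held by both E10.5 and both DIV0 libraries and by no other library numbered 8 of 313, 2.56%, against 0.534% of all regions, a pattern chosen after its values were seen. Ebf2, Ebf3 and Onecut1 had 2 each, and Onecut2 and Ebf1 had 1 each. The region 7.5 kb upstream of Onecut1 had 2.83-fold and 5.88-fold enrichment at E10.5 and 8.44-fold and 5.80-fold at DIV0. The region 246.2 kb from the start of Ebf2, downstream of the gene, had 3.51-fold and 8.19-fold at E10.5 and 8.59-fold and 6.57-fold at DIV0. The intronic Ebf3 region at 105.7 kb had 3.14-fold and 4.92-fold at E10.5 and 5.22-fold and 7.20-fold at DIV0. In all 3 the first E10.5 library was the weakest.

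The 201 bases around the strongest summit of these 3 regions are shown because they were open in the earliest samples of both systems and each holds 1 match to the letters of these same factors. Of the 8 such windows 4 held a match, the other being that of Onecut2, with 3 Onecut matches. Matches are also common among the strongest distal peaks at DIV0, with shares given below. The 4 of 8 were not tested against those shares. They are given on the + strand of mm10, at chr9:74853980-74854180 for Onecut1, chr14:67479516-67479716 for Ebf2 and chr7:137208696-137208896 for Ebf3. Capitals mark the Ebf letters CCCNNGGG at Onecut1 and Ebf2, and at Ebf3 the Onecut letters ATTGAT read from the other strand.
Onecut1 upstream region: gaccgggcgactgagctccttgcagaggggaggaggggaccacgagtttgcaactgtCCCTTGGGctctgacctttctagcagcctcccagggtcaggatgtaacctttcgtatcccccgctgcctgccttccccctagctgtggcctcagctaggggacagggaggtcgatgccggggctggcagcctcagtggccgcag
Ebf2 downstream region: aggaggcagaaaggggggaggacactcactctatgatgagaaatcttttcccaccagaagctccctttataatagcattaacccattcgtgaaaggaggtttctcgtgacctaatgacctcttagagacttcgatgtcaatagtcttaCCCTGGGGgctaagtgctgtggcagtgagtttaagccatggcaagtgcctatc
Ebf3 intronic region: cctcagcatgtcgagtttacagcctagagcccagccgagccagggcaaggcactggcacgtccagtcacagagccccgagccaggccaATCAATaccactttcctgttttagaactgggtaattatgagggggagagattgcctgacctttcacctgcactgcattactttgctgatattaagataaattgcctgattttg
A match describes the letters of the window and not binding.

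Across the genome, the letters of both families were counted within 100 bp of the summits of the 10000 strongest distal peaks of each library, those over 2000 bp from an annotated start. Onecut letters were found in 23.8% and 24.5% of these peaks at DIV0, 13.6% and 20.1% at DIV7, 7.28% and 9.48% at DIV28 and 8.36% and 10.9% with TTX. In vivo they were found in 11.8% and 15.9% at E10.5 and 11.2% and 16.9% at E13.5, and in 6.66% on average at P21. Both DIV0 libraries lay above all other libraries, and all E10.5 and E13.5 libraries lay above all later in vivo libraries. The mean share at DIV0 was 2.88 times that at DIV28, and that at E10.5 was 2.09 times that at P21. The comparison letters planned at first, GATCGA, gave ratios of 2.72 and 1.73, so much of the difference was shared by them. They share 5 letters in a row with ATCGAT, and the part of this overlap was not tested. The Onecut letters read backwards (TAGCTA or TAGTTA, both strands), added for comparison after seeing the data, gave 1.04 and 1.07. The 2 comparison sets differ, so how far the ratios are particular to the Onecut letters was not settled. The mean share at E13.5 was 2.12 times that at P21 for the Onecut letters. For that pair the ratio was 1.38 for the backward letters (1.19 to 1.58 over pairs of libraries) and 1.62 for GATCGA.

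Ebf letters were found in 12% and 11.2% of the distal peaks at DIV0 and 5.22% on average at DIV28, a ratio of 2.22. Their backward form GGGNNCCC gave 5.53% and 2.92%, a ratio of 1.89, so much of the difference was shared by letters of the same composition. In vivo the Ebf share was 7.89% at E10.5, 5.76% at E13.5 and 6.86% at P21, and the ratio of E10.5 to P21, 1.15, was close to the 1.18 of the backward letters. Onecut RNA at E13.5 was far under that at E10.5 whereas the share of Onecut letters was alike, 14.1% against 13.9%. The RNA and the ATAC libraries came from separate preparations. By the paper's methods, E13.5 nuclei for RNA were bound to beads, came from brachial and lumbar cord and held some blood vessel contamination. Nuclei for ATAC were sorted by fluorescence, were reported as purer and came from thoracic cord as well. The part of these differences was not tested.

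**Figure D5:**
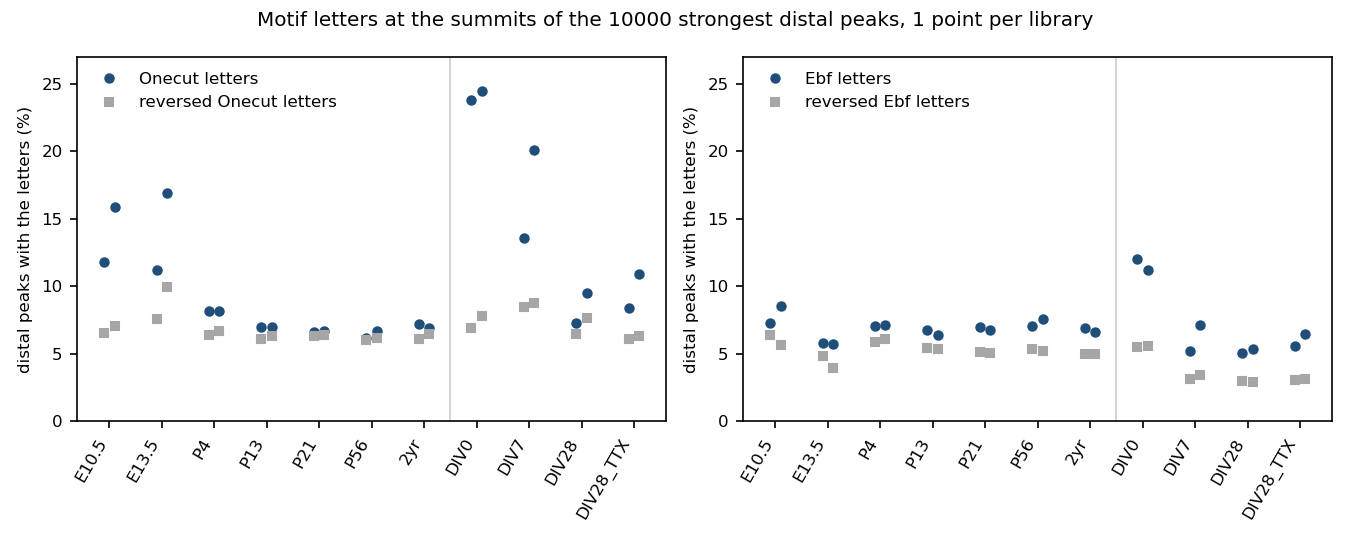
Percent of the 10000 strongest distal peaks of each ATAC library that hold Onecut letters (left) or Ebf letters (right) within 100 bp of the summit, 1 point per library, with the letters read backwards in grey squares. Onecut letters stand at 23.8% and 24.5% at DIV0 and near the grey squares from P13 to 2yr, and Ebf letters peak at DIV0 with 11.2% to 12%. The comparison letters GATCGA, planned at first for Onecut, are not drawn.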

How the data were processed

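RNA-seq gene tables of 28 libraries and ATAC-seq peak lists of 22 libraries were used. The authors deposited RSEM expected counts and TPM values per gene, and MACS2 intervals called per library with a fold enrichment ratio and −log10 p and q values. The submitters' processing notes name Trim Galore, cutadapt 0.6.2, RSEM 1.3.0, STAR 2.5.2b, BWA 0.7.1.7, SAMtools 1.7.2, MACS2 2.2.7.1 and mm10. RNA came from a ribosome-depleted total RNA kit, and RSEM was run at its defaults, which do not use strand.

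Expected counts were rounded and tested with edgeR 4.0.16 (quasi-likelihood test, TMM factors) in R 4.3.3, on genes with a CPM of at least 5 in every replicate of at least 1 condition. In vivo comparisons used 18 libraries, culture comparisons 10 and comparisons across systems 25. A call needed an unadjusted p under 0.001 and a 2-fold change. Adjusted p-values are Benjamini-Hochberg values over all genes of the fit. DESeq2 1.42.0 served as an alternative test. The size factors behind normalised counts were median-of-ratios factors computed in Python over all 28 libraries. Tables and figures were made with Python 3.11.15, numpy 2.4.6, pandas 2.3.3, scipy 1.17.1 and matplotlib 3.10.9, and the tests were checked on simulated data. The lowest total, 2704642 counts, limits the precision for Onecut3 and Ebf2 in culture. Counting intervals (95%) and the floor of 3 counts cover counting error only.

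The 6 genes and the marker lists were chosen with earlier results of these data known. The genes named are those 6, the lists, and for each of the 6 the 3 genes of highest Pearson r. Some listed genes are not reported here. DIV28 and DIV28_TTX cultures of the same number were grown in parallel according to the study's supplementary notes, and their deviations from the group means correlated at 0.515, 0.455 and 0.624, so these numbers pair the cultures. In vivo the correlations were −0.034 to 0.101 and the numbers were not taken as pairs. The replicate block used the numbers of all libraries of a fit, also where no pairing is given.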

Additional observations from a re-analysis of the deposited data

Results flagged for a closer look

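Onecut2, Ebf1 and Ebf2 are listed here because their change from DIV0 to DIV28 differed from their change from E13.5 to P21 by the edgeR test of the difference itself. On the log2 scale the difference was -2.29 for Onecut2, -2.17 for Ebf1 and -4.59 for Ebf2, with the more negative change in culture each time. For Onecut2 the difference was 0.17 when E10.5 took the place of E13.5.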

How the results depend on the processing

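Between DIV0 and DIV7, where the edgeR test called 0 of the 6 genes, 3 were called with an adjusted p limit (21.6% of all genes), 3 with no filter on low counts (8.69%), 3 with only the libraries of the groups compared (20.2%), 2 with a likelihood ratio test (16.8%), 2 with DESeq2 (16.5%), 2 with the replicate block (16%) and 1 with the library titled DIV0 replicate 3 left out (11.1%). From DIV7 to DIV28 1 was called with no filter (7.3%), against 0. With the replicate block the number of the 6 genes called was the same in the other 12 comparisons, while calls over all genes went from 88 to 172 with TTX and from 993 to 1519 from DIV7 to DIV28. From P4 to P13 leaving out 1 library gave 0 to 3 calls, against 2. In the difference of changes 1 was called with the titled library in DIV0, against 3. With E10.5 in place of E13.5, chosen after seeing the data, the differences of Onecut1 and Onecut2 turned to 1.95 and 0.167. That of Ebf1 was not called without DIV0 replicate 1 (-1.88) or with only the libraries of the groups compared (-2.16), and that of Ebf2 was lost when any 1 of 6 libraries was left out (-4.46 to -3.61). The cause was not tested. Over all alternatives, calls over all genes ranged from 168 to 2784 from DIV0 to DIV7 (1440 as reported), from 118 to 2232 from DIV7 to DIV28, from 12 to 365 with TTX, from 705 to 1701 from P13 to P21 (1097), from 8 to 115 from P21 to P56 (26) and from 59 to 281 from P56 to 2yr (103), reached down to 1287 from P4 to P13 (2006) and to 3717 from E10.5 to E13.5 (6621). For peaks, each percent of regions at the loci is followed by that of all regions in brackets. With all deposited peaks 9.87 (4.02) were lost from DIV0 to DIV28, 5.88 (2.67) from E10.5 to P21 and 3.15 (2.03) from E10.5 to E13.5, and 4.41 (1.52) were gained from E13.5 to DIV0. With a −log10 q of at least 2 these were 12.1 (4.65), 3.77 (1.95), 2.43 (1.41) and 4.58 (1.63), and 9.97 (7.8) were lost from P21 to DIV28. With the first or the second library of each group alone, 20.1 (15.1) and 26.8 (13.9) were lost from E10.5 to P21, 17.9 (14.6) and 24.3 (12.9) from E10.5 to E13.5, and 10.2 (13.1) and 10.2 (12.4) from P21 to DIV28, and 23.3 (33282 of all 317663 regions) were gained from E13.5 to DIV0 with the first. The ratio of Onecut letters at DIV0 to DIV28 was 2.25 over all distal peaks, 4.82 with a longer motif (a T set before the Onecut letters, or a T before or an A after the Ebf letters), 3.72 within 50 bp and 2.4 within 150 bp of the summit, and that at E10.5 to P21 was 1.45 over all distal peaks and 2.61 with the longer motif. The ratio of Ebf letters at DIV0 to DIV28 was 1.93 over all distal peaks, 2.36 with the longer motif, 2.09 with 20000 peaks, 2.49 within 50 bp, 1.94 within 150 bp, and 2.37 and 2.09 with the first and second libraries. That at E10.5 to P21 was 1.26 both over all distal peaks and with the second libraries.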
